A study of Homo sapiens with 6 samples.

Results

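Glycolysis breaks glucose down to pyruvate in the cytosol, and the lactate dehydrogenases then turn pyruvate into lactate. Tumour cells, melanomas among them, are known for a high flux through this pathway even when oxygen is present, and its enzymes are made from some of the most abundant mRNAs of a cell. CELF1 (also CUGBP1) is an RNA binding protein of the CELF family that recognises UGU-rich and GU-rich sequences, often in 3′ UTRs, and is known for roles in mRNA decay, translation and splicing. The genes described here were 10 enzymes of the pathway, chosen by name: HK2, GPI, ALDOA, TPI1, GAPDH, PGK1, ENO1, PKM, LDHA and LDHB. They were read among 10305 protein-coding genes that had sequenced RNA listed in every immunoprecipitate, of 20149 annotated.

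The data were RNA immunoprecipitation followed by sequencing (RIP-seq) with an antibody against CELF1 in 2 established human melanoma lines, SK-Mel-103 and UACC-62, grown in the same medium, with no treatment or genetic change named in the labels. Cells were fixed with formaldehyde before lysis. SK-Mel-103 had 1 IP library with its input, and UACC-62 had 2 (replicates 1 and 3), each with its own input, where the input is RNA of the same lysate before the antibody step. No IgG library was analysed here, so RNA that sticks to beads or antibody regardless of CELF1 cannot be told apart from RNA held by CELF1.

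Values are reads in 20-nt bins that the peak caller retained at a p-value under 0.05. The lists gave 816781, 780750 and 862731 bins that held 10958459, 11333805 and 14436573 IP reads in all, with 8453517, 10161917 and 8900292 reads of input. The order is SK-Mel-103, UACC-62 replicate 1, UACC-62 replicate 3, here and in each series of 3 values below. A bin that the caller dropped is unknown here, for the IP and for the input. Of 11 melanocytic markers, 4, 8 and 8 had listed bins, with a summed input of 121.3, 1596.1 and 1407.6 RPM (reads scaled to a total of 1000000 listed reads). SOX10, a melanocyte lineage factor, had 651, 866 and 764 IP reads. MITF, MLANA and RAB27A also had listed bins in every library. MITF had 18, 6036 and 5000 input reads, and MLANA had 18, 826 and 926. TYR, DCT, S100B and S100A1 had listed bins in UACC-62 only, and PMEL, TYRP1 and GPR143 had none. Of 5 fibroblast markers LUM had 27, 157 and 216 IP reads and the others none or, for DCN, 4 in 1 library. Of 4 keratinocyte markers KRT10 had 108, 60 and 111 and the others none. Of 4 leukocyte markers PTPRC had 25 and 8 IP reads in UACC-62, and of the endothelial markers, of which PECAM1 was not matched, VWF had 5 in UACC-62 replicate 3. The part of these markers in the results was not tested.

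For each gene, IP over input is the log2 ratio of the gene's share of listed IP reads to its share of listed input reads, with 1 read added to each count. A value of 0 therefore means that the mRNA took the same share of both, and it says nothing of the amount of the mRNA, which is given by the input. SK-Mel-103 has no replicate, UACC-62 values are given as mean ± SD with n = 2, and whether replicates 1 and 3 came from separate cultures is not given in the sources used here. No test was run, since an exact sign-flip test over 3 libraries cannot give a p below 0.25.

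All 10 mRNAs were found in the CELF1 immunoprecipitates, with 910, 974 and 975 listed bins. Each of the 10 also had at least 1 common peak, meaning the same bin with more than 30 IP reads in all 3 libraries, against 17.1% of the 10305 genes. Among the 1031 genes with the highest 10% of input reads (mean of the 3 libraries, not per kb), however, 74.8% had such a peak. All 10 mRNAs belong to these genes, so a common peak was usual for a gene with this many input reads. PKM had the most common peaks (66), followed by ENO1 (59), GAPDH (46), LDHA (45), LDHB (39), PGK1 (35), TPI1 (32), HK2 (24), GPI (15) and ALDOA (13). With a limit of more than 100 reads, 8 of 10 kept a common bin, against 5.24% of all genes, and HK2 and ALDOA had none. At this limit the share among the genes with the highest 10% of input is not given here, so these 8 are not set against genes of like input.

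Set against the input, the order changed. In 9 of the 10 mRNAs the share of IP reads was below the share of input reads in all 3 libraries, against 43.2% of all genes. In 8 of the 10 the log2 value was below -1 in all 3, against 12.9% of all genes and 39.1% of the genes with the highest 10% of input. HK2 was the exception, with values above 0 in every library, as 31.7% of genes had. The 10 mRNAs together held 0.376%, 0.460% and 0.545% of the listed IP reads and 0.979%, 2.084% and 1.914% of the listed input reads. Their median log2 IP over input was -1.39, -2.43 and -2.00, the median of all genes was -0.05, -0.40 and -0.20, and that of the genes with the highest 10% of input was -0.78, -1.38 and -1.06.

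**Figure D1:**
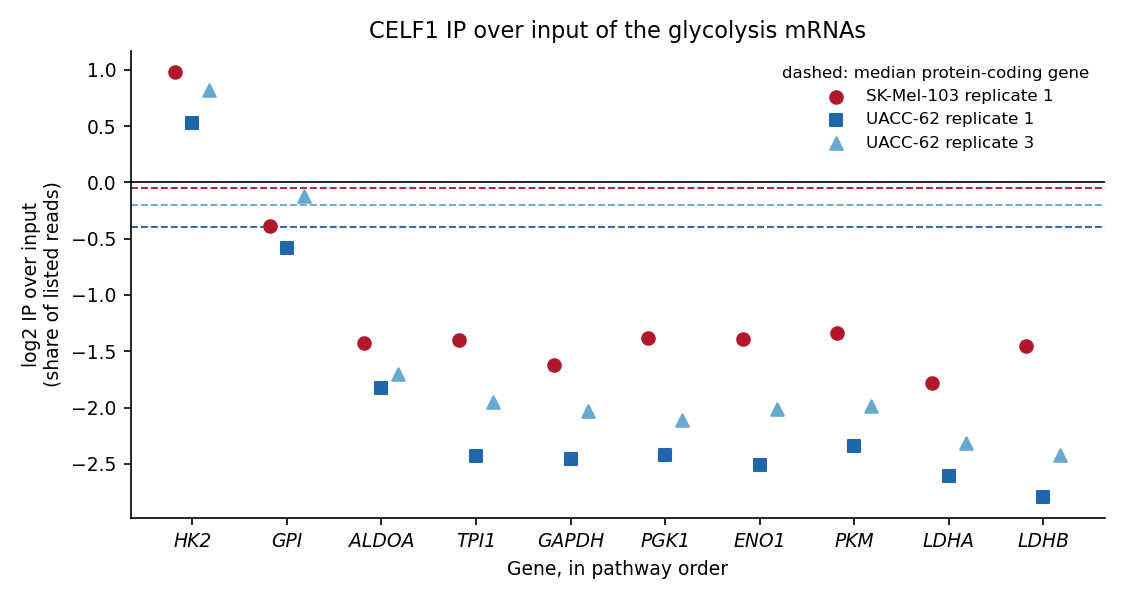
log2 IP over input (y axis, no unit) of each glycolysis mRNA in pathway order (x axis). Each symbol is 1 library, dashed lines are the medians of all protein-coding genes, HK2 lies above 0 in all 3 libraries, GPI lies between -0.58 and -0.12, and the other 8 mRNAs lie between -2.79 and -1.34.

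The sequences of the 3′ UTRs are shown first, as CELF1 is known for binding there. An 11-nt stretch within 2 mismatches of a repeat of TGTT or of a repeat of TG (the GU-rich element, written as DNA on the transcript strand) was searched in the canonical 3′ UTR of every gene, and 62.5% of 10182 genes held at least 1. Of the glycolysis genes 4 held one: HK2 with 4, PGK1 with 2, and GPI and TPI1 with 1 each. The 3′ UTRs of ALDOA (202 nt), GAPDH (201 nt), ENO1 (360 nt), PKM (621 nt), LDHA (1144 nt) and LDHB (200 nt) held no such match, and the median 3′ UTR of all genes was 1518 nt long. Each match is the first window from the 5′ end within the limit, and windows overlapping it were not counted. All 8 windows had 2 mismatches, but the fourth of HK2 runs on into its flank as an unbroken TG repeat. An 11-nt stretch without a mismatch is therefore held there. The matches are printed 5′ to 3′ with 5 flanking bases on each side, the matched window in capitals, with coordinates in GRCh37.
HK2 chr2:75118792-75118812, plus strand: ggagtTTTTAGTTTGTtttac
HK2 chr2:75118942-75118962, plus strand: ttataTGTTAATTTGTtatgt
HK2 chr2:75119560-75119580, plus strand: tgaccTGTTTTTGTGTttttc
HK2 chr2:75120180-75120200, plus strand: gtagaGATGTGTGTGTgtgta
GPI chr19:34891530-34891550, plus strand: gattaTGTTTGTTTCGggtga
TPI1 chr12:6979943-6979963, plus strand: tgtgcTGTGTATGTGAaccac
PGK1 chrX:77382802-77382822, plus strand: gccacTGTTTCATTGTcacta
PGK1 chrX:77384158-77384178, plus strand: gactaTATATGTGTGTttata

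The bins that hold these stretches were not the highest bins of their mRNAs, TPI1 excepted. The 4 HK2 matches begin 729, 879, 1497 and 2117 nt after the stop codon. The bin of the second had 23, 94 and 107 IP reads for 8, 47 and 40 input reads, a log2 IP over input of 1.04, 0.83 and 0.70. The bin of the third had 11, 31 and 43 IP reads for 4, 43 and 15 input reads (0.89, -0.62 and 0.76). The TPI1 match lies in the highest IP bin of that mRNA, with 215, 336 and 352 IP reads, yet the input there was 283, 1124 and 1035 reads and the log2 ratio -0.77, -1.90 and -2.25. Neither PGK1 match was listed in UACC-62 replicate 1. In the libraries that listed them, the PGK1 matches had 4 to 9 IP reads and 0 to 2 input reads, with log2 ratios above 0 (0.63 and 1.11 for the first, 2.95 and 1.62 for the second). The bins of the first 2 HK2 matches were thus above 0 in every library, and those of the other 2 were below 0 in UACC-62 replicate 1. Those of TPI1 and GPI were below 0 in every library, GPI with 19, 28 and 25 IP reads for 32, 51 and 22 of input. Of all HK2 bins listed in the 3 libraries, 80 of 124 were above 0 in every library. Below 0 in every library were 49 of 54 such bins in TPI1 and 51 of 124 in GPI.

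HK2, the hexokinase that phosphorylates glucose at the entry of the pathway and is often raised in tumours, was the 1 mRNA with more IP than input. ENSG00000159399 lies on chr2:75061254-75120486 (GRCh37, plus strand), and its canonical mRNA has 18 exons and 5626 nt, of which 2418 nt are 3′ UTR. Its 127, 185 and 196 listed bins held 2418, 7943 and 11300 IP reads for 943, 4944 and 3944 of input. On the log2 scale IP exceeded input by 0.98 in the SK-Mel-103 library and by 0.53 and 0.82 in those of UACC-62 (0.67 ± 0.21), a difference between lines of 0.31 beside a gap of 0.29 between the UACC-62 libraries. These values stood at the 83.0th, 73.9th and 75.8th percentile of all genes, and at the 90.7th, 85.9th and 86.6th percentile of the genes with the highest 10% of input. HK2 was thus in the upper part of the distribution without being at its end. By input RPM over the gene, whose mean sets the highest 10%, HK2 ranked 1981st, 383rd and 432nd among all genes. Per kb of listed bins it ranked 4257th, 1350th and 1314th, so many genes of that 10% had more input than HK2.

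The IP reads of HK2 lay almost wholly in the 3′ UTR, which held 95.2%, 92.6% and 93.3% of them, beside 90.5%, 77.8% and 79.9% of the input reads. The 3′ UTR gave a log2 IP over input of 1.06, 0.78 and 1.04, and the coding region gave -0.02, -1.06 and -0.76. Within this mRNA the 3′ UTR exceeded the coding region by 1.08 in the SK-Mel-103 library and by 1.84 and 1.80 in those of UACC-62 (1.82 ± 0.03), which is the 84.3rd, 93.8th and 96.4th percentile of 7307 genes with both regions listed. The coding values rest on few bins, since 17.0%, 49.6% and 54.8% of coding bins were listed against 86.0%, 95.9% and 96.7% of 3′ UTR bins, and unlisted coding bins have no value. All 24 common peaks were in the 3′ UTR, and all 24 had a log2 IP over input above 0 in the 3 libraries.

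Along the 3′ UTR of HK2 the ratio was lowest next to the stop codon. The first 604 nt gave 0.35, 0.32 and 0.78, nt 605 to 1209 gave 1.08, 1.06 and 1.19, nt 1210 to 1814 gave 0.88, 0.67 and 0.93, and nt 1815 to 2418 gave 1.65, 0.94 and 1.22. Each of the 3 later stretches was above the first in all 3 libraries, while their own order differed between libraries. The 3 bins with the highest IP reads are printed to show what the antibody brought down, with TGT in capitals where it occurs. Bins listed in all libraries were ranked by the lowest of the 3 libraries, as for the highest bins of the other mRNAs.
HK2 chr2:75119761-75119780, plus strand: attgaattggatacaaggat
HK2 chr2:75120321-75120340, plus strand: cagtggatctcaatcttcgg
HK2 chr2:75119961-75119980, plus strand: agtcttgctttgcTGTctgg

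The first of these had 85, 180 and 316 IP reads for 25, 113 and 86 input reads (log2 1.35, 0.51 and 1.17), and the second had 73, 136 and 261 for 29, 114 and 106 (0.93, 0.10 and 0.59). Of the 3 bins, 1 holds a TGT. Over the whole HK2 3′ UTR TGT occurred 28.9 times per kb, against a median of 23.7 per kb over all 3′ UTRs, and PKM (27.4 per kb), LDHA (28.0 per kb) and ENO1 (27.8 per kb) were close to HK2 in that count while their ratios were below -1.

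**Figure D2:**
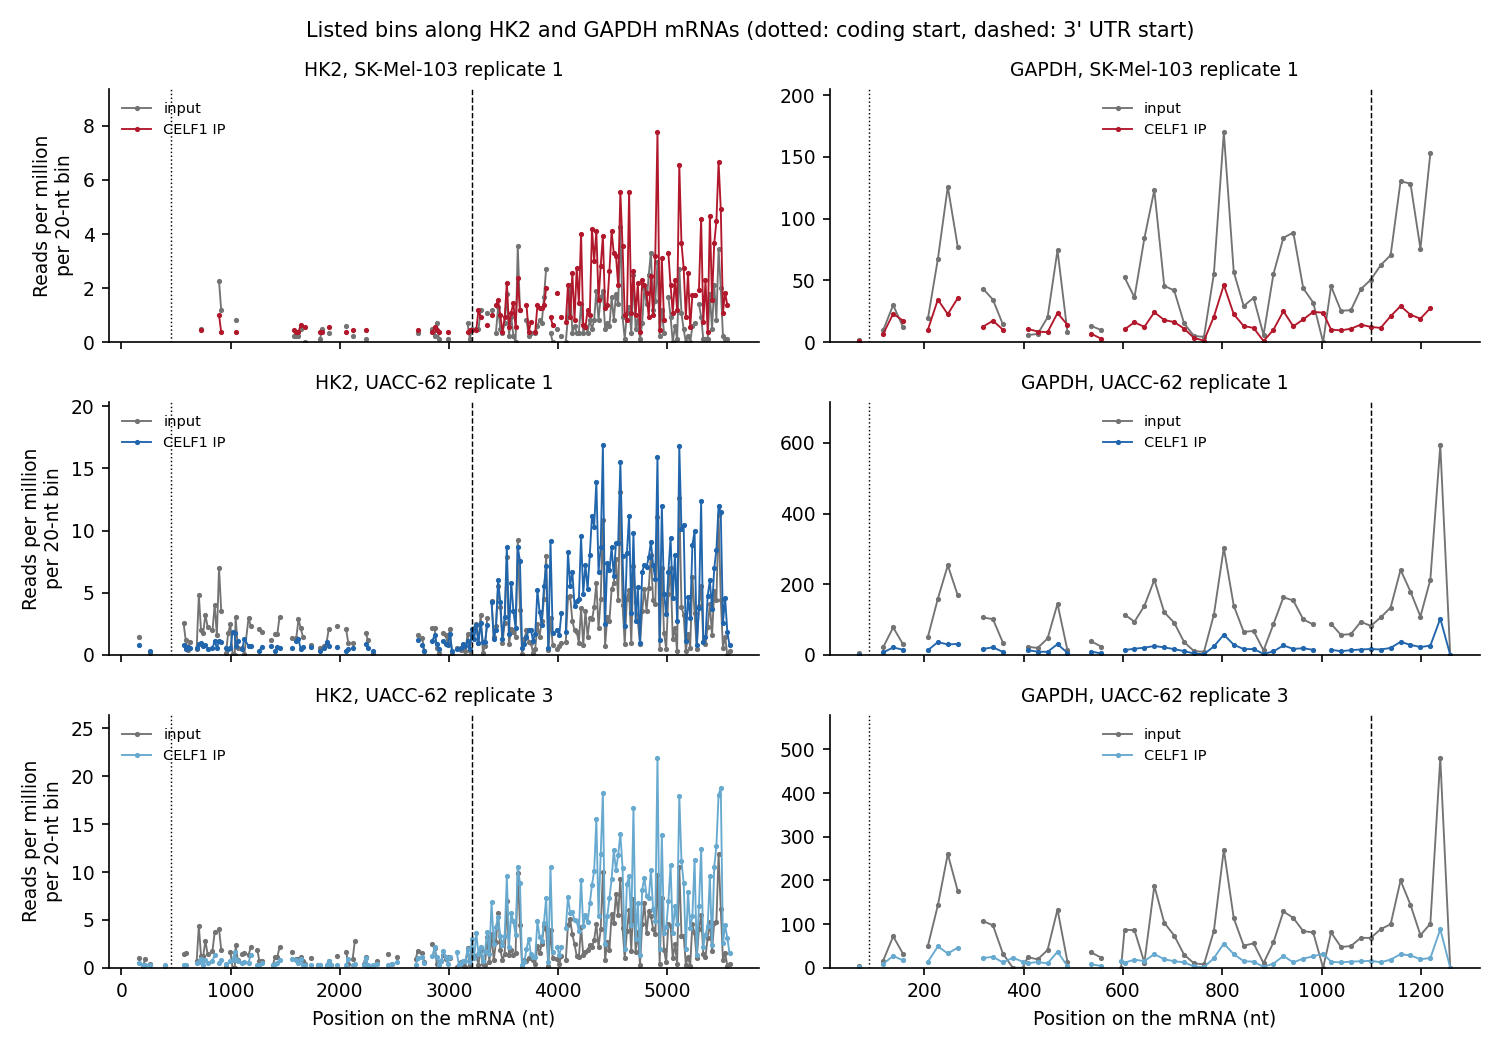
RPM in each listed 20-nt bin (y axis, scaled per panel) along the canonical mRNA (x axis, nt from its 5′ end) of HK2 and GAPDH in the 3 libraries, IP in colour and input in grey, gaps standing for bins that were not listed. In HK2 the IP runs above the input in most of the 3′ UTR, and in GAPDH it runs below the input over nearly the whole mRNA.

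GPI, which converts glucose 6-phosphate to fructose 6-phosphate, stood between HK2 and the rest. The gene (ENSG00000105220, chr19:34850385-34893318, plus strand) had 2326, 3670 and 5829 IP reads and 2357, 4925 and 3908 input reads, which gave log2 ratios of -0.39 for SK-Mel-103 and of -0.58 and -0.12 for UACC-62 (-0.35 ± 0.33). The SK-Mel-103 value fell between the UACC-62 values. These were the 36.5th, 44.7th and 51.8th percentile of all genes, so GPI was close to the median gene. Of its 145, 155 and 157 listed bins, 124, 131 and 133 belonged to GPI alone, and these gave -0.34, -0.53 and -0.07. The regions of the mRNA differed in the same way as in HK2: the 3′ UTR gave 0.03, -0.11 and 0.43 and the coding region -0.79, -0.97 and -0.52, a difference of 0.82 for SK-Mel-103 and 0.90 ± 0.06 for UACC-62. Of its 15 common peaks 9 were in the 3′ UTR, and 5 of the 15 were above 0 in all libraries. Its highest bin carries 2 TGT and had 127, 322 and 486 IP reads for 91, 295 and 221 input reads (0.10, -0.03 and 0.44).
GPI chr19:34891181-34891200, plus strand: ccaTGTtcacgtTGTtcaca

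ALDOA, the aldolase that splits fructose 1,6-bisphosphate, opened the group with low ratios (ENSG00000149925, chr16:30075485-30081778, plus strand). It had 1331, 1945 and 2421 IP reads and 2766, 6204 and 4862 input reads, or a log2 of -1.43, -1.83 and -1.70 (UACC-62 -1.77 ± 0.09). Its 3′ UTR and coding region differed by -0.04, 0.08 and -0.12, so that neither exceeded the other in all libraries. Nearly all of its listed bins also lie in exons of an overlapping gene on the same strand: 3 of 58, 3 of 59 and 5 of 63 bins belonged to ALDOA alone, and these gave -2.18, -1.01 and -2.09 from 38, 14 and 106 IP reads. The reads of the 2 genes cannot be told apart elsewhere.

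TPI1, which interconverts the 2 triose phosphates, had 2771, 2799 and 4694 IP reads and 5628, 13538 and 11221 input reads (ENSG00000111669, chr12:6976283-6980112, plus strand). The log2 ratio was -1.40, -2.43 and -1.95 (UACC-62 -2.19 ± 0.34). Its 3′ UTR minus coding difference spread most among the 10 mRNAs in UACC-62, at 0.03 and -0.79 (-0.38 ± 0.58), with -0.52 in SK-Mel-103.

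GAPDH, which oxidises glyceraldehyde 3-phosphate and is widely used as a reference transcript, was the most abundant of the 10 (ENSG00000111640, chr12:6643678-6647540, plus strand). Its input of 2368.5, 4860.8 and 3925.4 RPM per kb of listed bins ranked 5th, 2nd and 3rd among all genes. By RPM over the gene it ranked 11th, 3rd and 3rd in the input and 118th, 104th and 95th in the IP. The 8773, 11205 and 15846 IP reads stood against 20823, 55323 and 39828 input reads, a log2 IP over input of -1.62, -2.46 and -2.03 (UACC-62 -2.24 ± 0.31), at the 2.0th, 2.6th and 3.5th percentile of all genes. GAPDH held 38 common bins above 100 IP reads, the highest count of the 10, and none of its 50 bins listed in all libraries had a ratio above 0 in all of them. Its 3′ UTR minus coding difference was -0.78, -0.21 and -0.50. In UACC-62 the highest bin, at nt 1239 in the 3′ UTR, had 102.9 and 88.2 RPM in the IP and 592.9 and 479.9 in the input. It was not listed in SK-Mel-103. Among bins listed in all libraries, the one with the most IP reads lies in the coding region. It had 507, 651 and 801 IP reads for 1435, 3077 and 2408 input reads (-1.87, -2.40 and -2.28).
GAPDH chr12:6646941-6646960, plus strand: cgTGTcagtggtggacctga

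PGK1, which makes the first ATP of the pathway, gave -1.38, -2.42 and -2.11 (UACC-62 -2.27 ± 0.22) from 3078, 3541 and 5816 IP reads and 6175, 17016 and 15472 input reads (ENSG00000102144, chrX:77166236-77384792, plus strand). It has the longest 3′ UTR of the 10, at 3465 nt, and 45.4%, 32.2% and 45.4% of the bins there were listed. The 3′ UTR exceeded the coding region by 0.06, 0.37 and 0.27. ENO1, the enolase, gave -1.39, -2.51 and -2.01 (UACC-62 -2.26 ± 0.35) from 6350, 7827 and 11507 IP reads (ENSG00000074800, chr1:8921059-8939249, minus strand). Every 3′ UTR bin of ENO1 and PKM (and of LDHB) was listed in all libraries, and their 3′ UTR minus coding differences were -0.16, -0.01 and 0.06 for ENO1 and -0.35, -0.11 and -0.10 for PKM.

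PKM, which encodes the pyruvate kinases of the last ATP-making step, gave -1.34, -2.34 and -1.99 (UACC-62 -2.17 ± 0.25) from 6395, 4821 and 6562 IP reads and 12519, 21901 and 16084 input reads (ENSG00000067225, chr15:72491370-72524160, minus strand). Its transcripts contain either the exon of PKM1, the form of muscle and brain, or the exon of PKM2, the form of proliferating cells. Both exons are 167 nt long, and they differ at 62 positions (62.9% identity), so reads can be assigned to them. The 30-nt windows in which they differ most are printed with the 20 differing bases in capitals.
PKM1 exon chr15:72495447-72495476, minus strand: TGTGcgAGCCTcAAGTCACTccaCAgaccT
PKM2 exon chr15:72494879-72494908, minus strand: CCGCcgCCTGGcGCCCATTAccaGCgaccC

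In listed bins the PKM2 exon had 371, 291 and 324 IP reads against 519, 1391 and 842 of input. The PKM1 exon (chr15:72495363-72495529) had no listed bin in the SK-Mel-103 library and 11 IP reads in each of UACC-62 (exact 95% Poisson interval 5.5 to 19.7, counting error only) beside 20 and 8 input reads. Of the reads of both exons, PKM1 took 3.64% and 3.28% of the IP and 1.42% and 0.94% of the input in UACC-62. The PKM2 exon gave a log2 IP over input of -0.86, -2.41 and -2.07, and the PKM1 exon gave -0.96 and -0.28 in the UACC-62 libraries, from 2 of its 8 bins. The difference between the 2 exons was not tested.

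LDHA and LDHB, the subunits of lactate dehydrogenase, closed the pathway with the lowest ratios in UACC-62. LDHA (ENSG00000134333, chr11:18416107-18429972, plus strand) had 4281, 5358 and 8949 IP reads and 11335, 29297 and 27364 input reads, or -1.78, -2.61 and -2.31 (UACC-62 -2.46 ± 0.21), and was the lowest of the 10 in SK-Mel-103. LDHB (ENSG00000111716, chr12:21788276-21910791, minus strand) had 3521, 2979 and 5755 IP reads and 7423, 18531 and 19016 input reads, or -1.45, -2.79 and -2.42 (UACC-62 -2.61 ± 0.26), at the 3.7th, 0.7th and 0.7th percentile of all genes. The 3′ UTR of LDHB exceeded its coding region in all libraries (0.56, 0.46 and 0.33), and that of LDHA did so in UACC-62 (0.16 and 0.32) with -0.17 in SK-Mel-103. An annotated gene on the same strand also overlaps LDHB, and the 17, 16 and 15 listed bins of LDHB alone gave -1.03, -2.42 and -2.16. The highest bin of LDHB, in its 3′ UTR, had 248, 193 and 416 IP reads for 430, 1047 and 1161 input reads (-1.17, -2.59 and -2.18) and holds no TGT.
LDHB chr12:21788301-21788320, minus strand: tgcaatctgagctcttgaac

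In all, 4 of the 10 mRNAs (HK2, GPI, PGK1 and LDHB) had a higher ratio in the 3′ UTR than in the coding region in every library, against 44.5% of 7307 genes, a share close to the background. The median difference over all genes was 0.30, 0.28 and 0.23. HK2 and GPI exceeded that median in every library, LDHB did so too, and PGK1 was below it in SK-Mel-103.

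**Figure D3:**
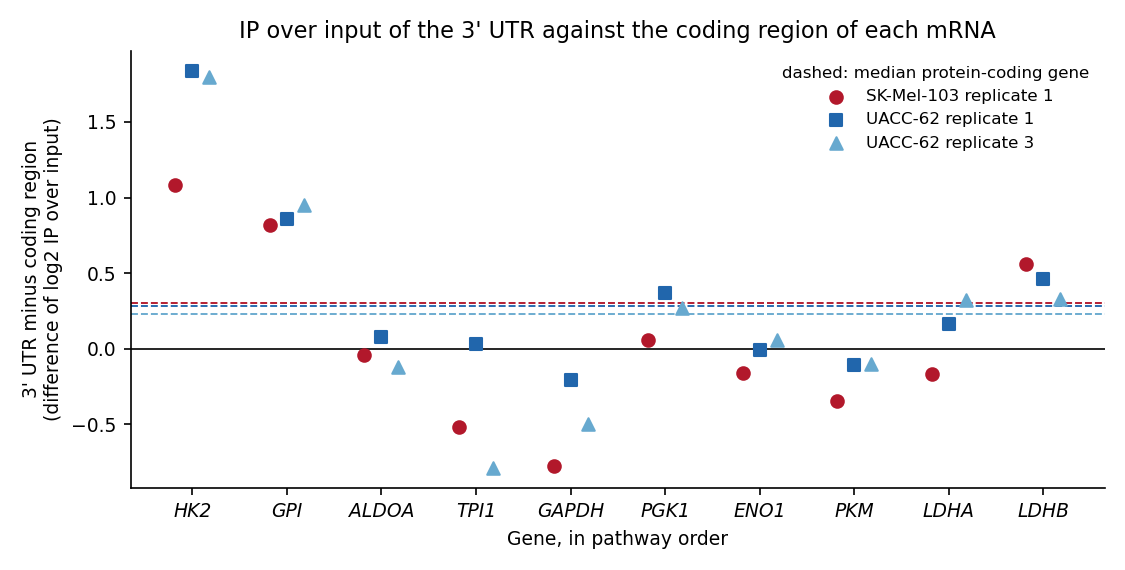
Difference of log2 IP over input between 3′ UTR and coding region (y axis, no unit) of each mRNA (x axis), 1 symbol per library, dashed lines at the medians of all genes. HK2 lies between 1.08 and 1.84 and GPI between 0.82 and 0.95, and the other mRNAs lie between -0.79 and 0.56.

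The single bins hold the same reads as the sums, and the share of such bins over the whole lists is not given here. The 10 mRNAs had 774 bins listed in all 3 libraries, of which 97 were above 0 in every library and 537 below 0 in every library. HK2 held 80 of the 97 and GPI 16. Of the 526 bins of the other 8 mRNAs, 1 (in the 3′ UTR of PGK1) was above 0 in every library, and of their 335 common peaks none was, while 319 of the 335 were below 0 in every library. A few input values were low beside their neighbours: the highest IP bin of PGK1, with 141 IP reads in UACC-62 replicate 1, listed 3 input reads, where the next bin listed 771, and 4, 3 and 8 member peaks listed no input read, with up to 473 IP reads in 1 GAPDH bin. In the whole lists 1.90%, 2.49% and 2.40% of peaks listed no input. With bins of at least 1 input read alone, no value of the 10 mRNAs changed sign.

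Abundance itself was read from the input per kb of listed bins, the scale on which genes can be compared. The UACC-62 means were 4393.1 ± 661.5 for GAPDH, 2099.1 ± 137.2 for LDHA, 1999.9 ± 19.3 for ENO1, 1849.3 ± 182.4 for LDHB, 1109.6 ± 83.4 for TPI1, 791.0 ± 22.3 for PKM, 766.3 ± 100.3 for PGK1, 475.5 ± 59.3 for ALDOA, 148.1 ± 11.7 for GPI and 122.3 ± 13.0 for HK2 (RPM per kb). Between neighbours in this order, LDHA and ENO1 overlapped, as did PKM and PGK1, and ENO1 and LDHB differed by less than the SD of LDHB. In SK-Mel-103 the level was 2368.5 for GAPDH, 971.6 for LDHA and 43.9 for HK2, and HK2 ranked 4257th among all genes there against 1350th and 1314th in UACC-62. The 2 mRNAs with the lowest input were also the 2 with the highest IP over input. Across all genes, too, the ratio fell as the input rose, where both measures hold the same input reads and no listed bin had fewer than 4 IP reads.

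**Figure D4:**
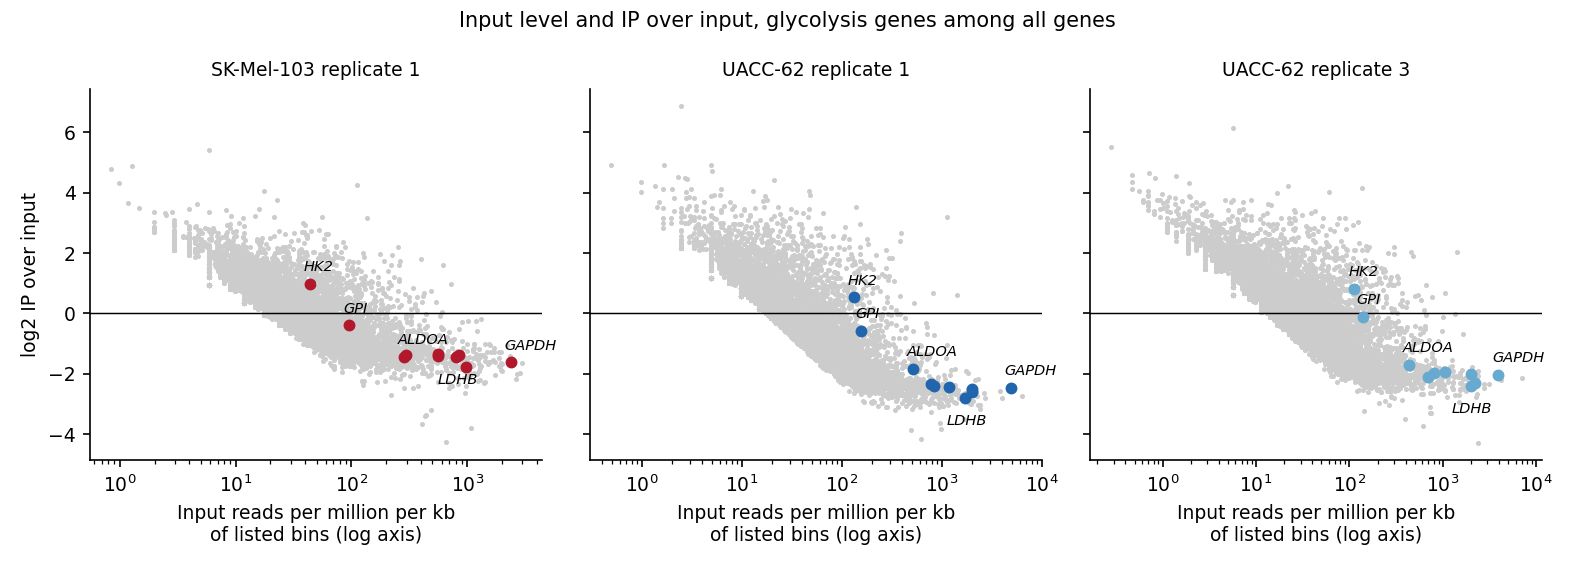
log2 IP over input (y axis) against input RPM per kb of listed bins (x axis, log scale) in the 3 libraries, grey points being all protein-coding genes with an input above 0 and coloured points the glycolysis genes. HK2 lies in the upper part of the genes at its input level, and the 8 mRNAs from ALDOA to LDHB lie in the low band of the most abundant genes.

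Between the cell lines, 9 of the 10 mRNAs had a higher IP over input in SK-Mel-103 than in both UACC-62 libraries, against 53.7% of all genes, and GPI was the exception. The median difference between SK-Mel-103 and the UACC-62 mean was 0.74 over the 10, beside a median gap of 0.36 between the UACC-62 libraries and a median difference of 0.26 over all genes. LDHB differed most (1.16 beside a gap of 0.37), followed by PGK1 (0.89 beside 0.31) and ENO1 (0.88 beside 0.50). The difference of HK2 (0.31) was about the size of its UACC-62 gap (0.29). The input moved the other way, as all 10 mRNAs had less input per kb in SK-Mel-103 than in both UACC-62 libraries, against 37.1% of all genes, with log2 differences from -0.50 (PKM) to -1.47 (HK2). The part of input level in the difference between lines was not tested, and with 1 SK-Mel-103 library the line and the library cannot be told apart.

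On the opposite strand the members' exons had between 0.00% and 0.68% of the IP reads of both strands, the highest share in GPI. Of 92 annotated pseudogenes named after the 10 genes, 10, 11 and 20 had listed bins, with IP reads equal to 0.84%, 0.76% and 1.21% of those of the parent genes. The share was highest for TPI1 (2.92%, 3.68% and 7.20%, with 3 peaks in UACC-62 replicate 3) and ENO1 (3.28%, 2.45% and 2.23%, with 2 peaks in each library). The alignment allowed a read to map to several places, so reads of the parents and of near-identical pseudogenes may be split in ways these lists do not show.

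Genes around the pathway were read from a list of 35, of which 30 had listed bins in all libraries. Of the 30, 6 had a common peak, against 17.1% of the 10305 genes. Their median log2 IP over input was -0.38, -1.35 and -1.18. Of the 30, 18 were below 0 in all libraries (6 of them below -1), 5 were above 0 in all and 7 were mixed. Over the 10305 genes, 43.2% were below 0 in all libraries, 12.9% below -1 and 31.7% above 0. SLC16A1, the lactate and pyruvate transporter MCT1, stood out by depth, with 5112, 13936 and 15276 IP reads for 1637, 4069 and 3026 input reads, a log2 of 1.27, 1.62 and 1.64, and 53 common peaks. The other mRNAs above 0 in every library were PDK3, a kinase that restrains pyruvate dehydrogenase (1.93, 1.35 and 1.81), PFKFB2, which sets the level of fructose 2,6-bisphosphate (2.87, 2.10 and 1.95, the first from 18 IP reads and 1 input read), SLC2A3, the glucose transporter GLUT3 (1.39, 0.70 and 0.65), and ADPGK, a glucokinase that uses ADP (0.19, 0.12 and 0.26). The canonical 3′ UTRs of SLC16A1 (2044 nt), PFKFB2 (5446 nt) and PDK3 (350 nt) held 4, 9 and 0 GU-rich elements. PDK3 had 86, 288 and 433 listed bins, far more than a 3′ UTR of 350 nt can hold. Most of its listed bins thus lay outside the sequence searched, and whether they hold such elements was not tested.

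HK1, the other widely expressed hexokinase, gave -0.83, -1.67 and -1.57 from 424, 632 and 960 IP reads, below HK2 in every library, and its 3′ UTR of 747 nt held no GU-rich element. PGAM1, the mutase between PGK1 and enolase, gave -1.21, -1.90 and -1.59 with 10 common peaks. The phosphofructokinases PFKM (-0.80, -1.82 and -1.62), PFKP (-1.29, -1.33 and -1.52) and PFKL (-0.25, -1.23 and -0.83) were below 0 throughout. SLC2A1, the glucose transporter GLUT1, gave -0.51, -0.69 and -1.01, and TKT, the transketolase of the pentose phosphate pathway, gave -1.72, -2.17 and -1.86. ENO3, LDHC, LDHD and FBP1 had no listed bin, and SLC16A3, the lactate exporter MCT4, was listed in SK-Mel-103 with 287 IP reads and not in UACC-62.

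**Figure D5:**
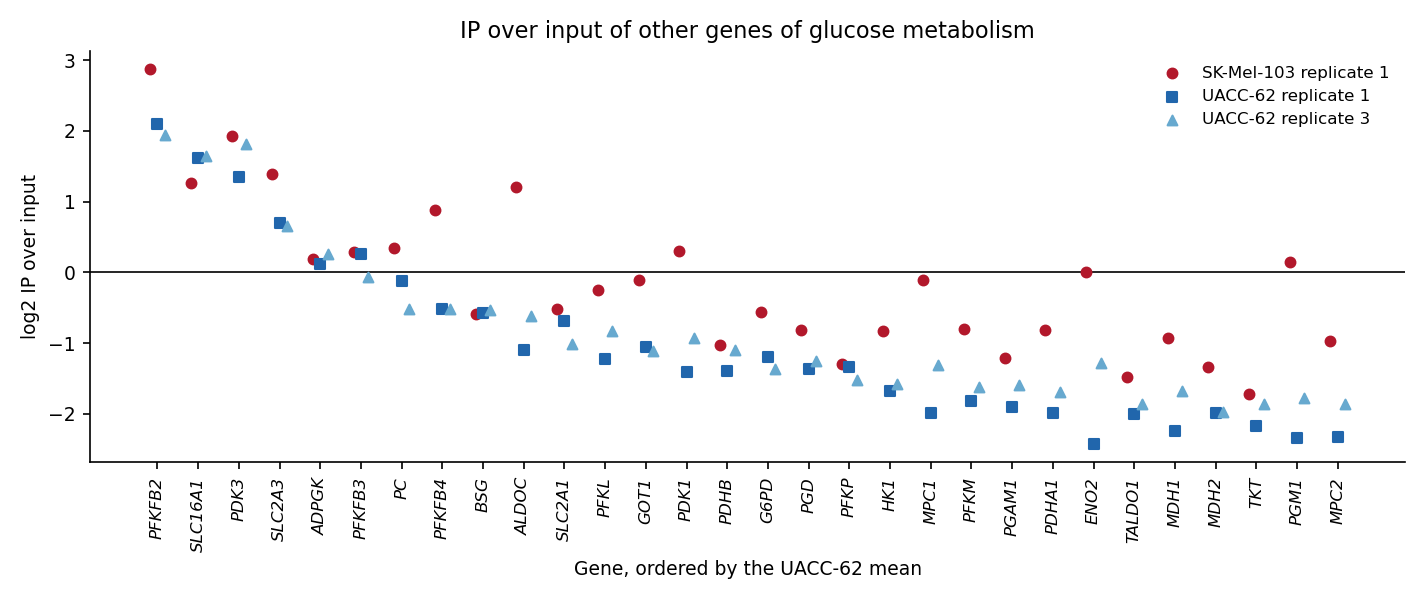
log2 IP over input (y axis, no unit) of the 30 other genes of glucose metabolism with listed bins in every library (x axis, ordered by the UACC-62 mean), 1 symbol per library. PFKFB2, SLC16A1, PDK3, SLC2A3 and ADPGK lie above 0 in all 3 libraries and 18 genes lie below 0 in all 3.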

How the data were processed

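RIP-seq libraries of 2 melanoma lines were analysed: 3 CELF1 immunoprecipitates, each with its input, of 6 samples in the series. Per the methods, the authors aligned single-end reads to GRCh37 and called bins with Piranha at an FDR of 0.05, and kept bins with more than 30 reads as peaks. The submitters' processing notes name TopHat2 2.0.4, Bowtie 0.12.7 and SAMtools 0.1.16, and the methods name other versions of these tools. The deposited lists give, per 20-nt bin, the IP read count, a p-value of up to 0.0499 (whether these listed values are adjusted is not given in the sources used here), and a covariate ratio, read here as the paired input, which was converted to whole reads by its smallest step (largest offset from a whole number 0.0247). A covariate of 0.01 marked bins without input, which were 9.7%, 15.9% and 29.2% of bins.

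The listed strand was taken as the reverse of the transcript strand. Bins were assigned by their centre to exons of GENCODE genes lifted to GRCh37, with 3′ UTR before coding region. Peaks were bins over 30 IP reads. Named genes were all 10 members, 35 pathway genes and marker lists. The members and lists were chosen with earlier results of these data known. Scripts (Python 3.11.15, numpy 2.4.6) were tested on simulated lists. Alternatives varied the pseudocount of 1 read, bins, exons, strand, scaling and replicates, and the use of canonical transcripts alone was added after seeing the data. Intervals cover counting error only.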

Additional observations from a re-analysis of the deposited data

Results flagged for a closer look

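Among the other genes of glucose metabolism, 6 had a log2 IP over input at or above 0 in SK-Mel-103 and below 0 in both UACC-62 libraries. Of the 10305 genes, 912 (8.85%) were above 0 in the first line and below 0 in both libraries of the second. The difference between SK-Mel-103 and the UACC-62 mean was 2.21 for PGM1, 2.06 for ALDOC, 1.85 for ENO2, 1.49 for PDK1, 1.41 for PFKFB4 and 0.66 for PC, and none of these differences was tested. Several rest on few SK-Mel-103 reads: ALDOC had 5 IP reads and 1 input read there, PC had 32 and 19, PDK1 had 65 and 40, and PGM1 had 117 and 81, against 849 and 3854 for PGM1 in UACC-62 replicate 1. ENO2 stood at 0.00 in SK-Mel-103, with 433 IP and 333 input reads in 41 listed bins, and at -2.42 and -1.28 in UACC-62. The UACC-62 values rest on 3 and 12 listed bins with 50 and 126 IP reads, so the lines are not compared over the same bins.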

How the results depend on the processing

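No paired analysis was possible because no result comes from a test (each IP was already read against its own input). The median log2 ratio of the 10 mRNAs in UACC-62 (mean of both libraries) was -2.21, and it became -1.79 when reads were not divided by the list totals. Taking the listed strand as the transcript strand turned it to 0.92, over the few mRNAs with a bin there, and GPI, then the 1 gene listed in all libraries, to 0.91 (SK-Mel-103) and 1.69 (UACC-62). On that strand the counts of mRNAs with a common peak, below 0 and below -1 were 0 (from 10, 9 and 8), and pseudogene reads went from 0.98% to 0.02% of those of the parents. The median input per mRNA in UACC-62 was 1760.9 RPM, 1743.4 over bins listed in all libraries and 1932.8 when scaled to reads in protein-coding exons. GPI turned above 0 with 3′ UTR bins alone (0.03 for SK-Mel-103, 0.16 for UACC-62), with bins over 30 IP reads alone (0.09 in SK-Mel-103) and without division by totals (0.08 in UACC-62). HK2 turned below 0 with coding bins alone (-0.02 for SK-Mel-103, -0.91 for UACC-62). With the median gene of each library subtracted, GPI became 0.07 in UACC-62 replicate 3, and the count below 0 went from 9 to 8. Without division by totals the count below -1 went from 8 to 7, with PKM at -0.97 in SK-Mel-103. No other value of the 10, for SK-Mel-103 or the UACC-62 mean, changed sign, and without either UACC-62 replicate all 10 kept their direction. With 2 and 1 libraries per line, and unlisted bins unknown, a value near 0 such as that of GPI has no settled sign.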
